A study of Mus musculus with 18 samples.

Results

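The MS4A genes encode a family of proteins that cross the plasma membrane several times and sit beside immune receptors. Ms4a1 is CD20, the surface protein that defines B cells. Ms4a2 is the beta subunit of the high-affinity IgE receptor, which mast cells and basophils carry. Ms4a4a, Ms4a6c, Ms4a6d and Ms4a7 are mostly known from macrophages and monocytes, and the MS4A4A protein has been found next to Dectin-1, the beta-glucan receptor encoded by Clec7a. Ms4a4b is known from T cells, and Ms4a6b from T cells and macrophages. Obese adipose tissue gathers macrophages, and also holds B cells, T cells and mast cells.

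The members followed here were Ms4a1, Ms4a2, Ms4a4a, Ms4a4b, Ms4a4c, Ms4a4d, Ms4a6b, Ms4a6c, Ms4a6d and Ms4a7. They were chosen by gene symbol to cover macrophage, B cell and mast cell members of the family, as 10 of the 25124 genes in each deposited table. RNA came from inguinal white (iWAT), epididymal white (eWAT) and brown adipose tissue (BAT) of male mice on a C57BL/6J background, either wildtype (WT) or with a global caspase-6 deletion (C6KO), both born to heterozygous parents and housed together. Every group was fed a high fat diet (HFD) with 60% fat for 12 weeks from 10 to 14 weeks of age, so no value stands for lean mice. Each genotype had 3 libraries per depot, 18 in all. Whether the libraries of a group came from separate mice is not said in the labels, so p-values measure the spread between these libraries. Nor is it said whether libraries of one number in different depots came from the same mouse, and tests between depots treat them as independent. Because whole tissue was sequenced, fewer cells of a type cannot be told apart from less RNA per cell.

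Total counts per library ran from 16506034 to 19043523 for iWAT, from 16717201 to 19139694 for eWAT, and were lower for BAT, from 7803108 to 12428683. Casp6 itself had 127 to 422 counts in the 9 WT libraries and 26 to 141 in the 9 C6KO libraries, lower in every C6KO library than in any WT library of its depot. Some Casp6 reads were thus counted in every C6KO library. Ucp1, the uncoupling protein of brown fat, lay between 4468 and 11033 CPM in BAT and at no more than 5.53 CPM in the white depots. CPM here are counts scaled to library size with TMM factors over the 18 libraries. A few libraries stood apart in lymphocyte transcripts: the summed level of 7 B cell markers was 98.6 CPM in BAT WT replicate 2 against 2.79 to 6.28 CPM in the other BAT libraries, and 183 and 242 CPM in eWAT WT replicate 3 and eWAT C6KO replicate 3 against 24.6 to 76.2 CPM in the other eWAT libraries. In iWAT, C6KO replicate 3 had a summed level of 12 macrophage markers of 1630 CPM, while the other C6KO libraries had 594 and 631 CPM and those of WT 2151 to 2490 CPM. For the MS4A members, results of the main test (edgeR) that rest on these libraries are given with and without them. Results of a second tool (DESeq2), of the marker lists and of the genes with the nearest profiles are given only with all libraries.

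The 10 members lie in one cluster on chromosome 19, chr19:11249679-11623719 of mm10, and each had the same transcript in the 3 tables. For 2619 other genes the listed transcript differed between tables. The markers Cd22, Fcer2a and Cd247 and the related gene Tmem176b, described below, are among them. Depot comparisons of such genes, and the shares of all genes between depots, thus rest in part on unlike exons. The family falls into groups of close copies, which matters for counting because a read that fits more than 1 member cannot be assigned with certainty. In the coding sequences of GENCODE transcripts, Ms4a4b and Ms4a4c had 91.8% identical bases, Ms4a4c and Ms4a4d 87.9%, and Ms4a4b and Ms4a4d 85.7%. Ms4a6b matched Ms4a6c at 86.3% and Ms4a6d at 81.8% of aligned bases, and Ms4a6c matched Ms4a6d at 79.7%. No other pair passed 69.9%.

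**Figure D1:**
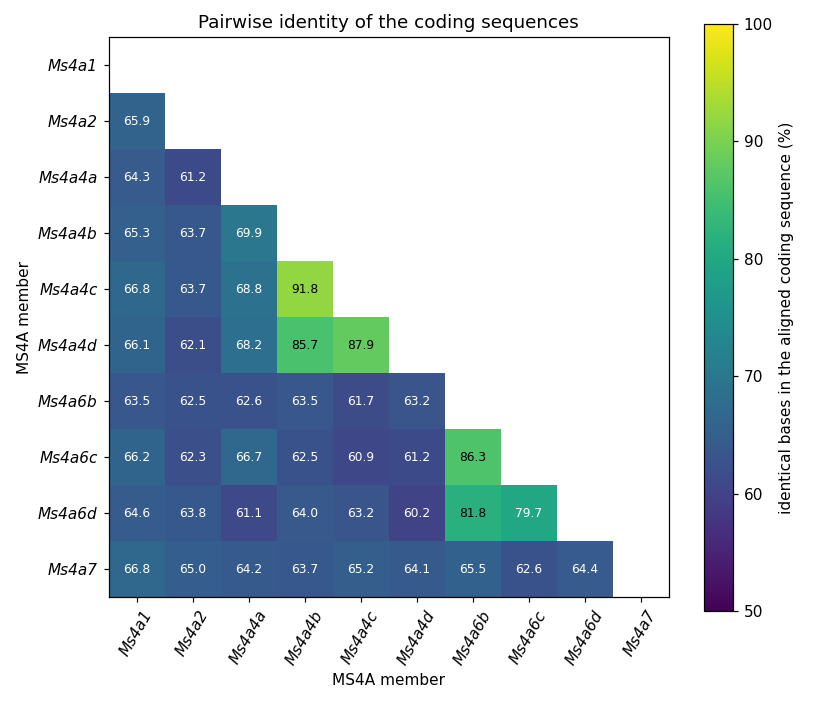
Identity of the coding sequences of each pair of the 10 MS4A members, with members on both axes and colour and number giving the percentage of identical bases among those aligned. The block of Ms4a4b, Ms4a4c and Ms4a4d (85.7 to 91.8%) and that of Ms4a6b, Ms4a6c and Ms4a6d (79.7 to 86.3%) stand out from all other pairs, which stay at or below 69.9%.

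The longest stretches shared without a mismatch show where reads could be ambiguous. They are printed in capitals because every base is identical in both members. The first begins at coding base 321 of both Ms4a4b (transcribed from the plus strand, chr19:11443558-11463548) and Ms4a4c (plus strand, chr19:11407661-11427246) and is 127 bases long. The second begins at coding base 100 of both Ms4a6b (plus strand, chr19:11518559-11530403) and Ms4a6d (minus strand, chr19:11586606-11604804) and is 81 bases long.
Ms4a4b and Ms4a4c: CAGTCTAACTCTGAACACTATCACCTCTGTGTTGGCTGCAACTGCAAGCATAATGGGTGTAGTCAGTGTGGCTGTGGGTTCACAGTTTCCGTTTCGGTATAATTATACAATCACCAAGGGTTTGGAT
Ms4a6b and Ms4a6d: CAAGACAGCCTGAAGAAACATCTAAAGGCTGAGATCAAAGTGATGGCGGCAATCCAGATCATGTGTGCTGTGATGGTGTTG
Of all windows of 50 bases along the transcripts, 8.48% of those of Ms4a4c, 8.55% of those of Ms4a6b, 5.58% of those of Ms4a6c, 2.92% of those of Ms4a6d, 2.85% of those of Ms4a4b and 0.546% of those of Ms4a4d recurred in another member, and 0% of those of Ms4a1, Ms4a2, Ms4a4a and Ms4a7. Values of Ms4a4b, Ms4a4c, Ms4a6b, Ms4a6c and Ms4a6d are therefore uncertain where the authors' counting could have split reads between copies. Exons of Ms4a4c, Ms4a6b and Ms4a6c also overlap Gm5692, Gm19261 and BE692007 on the opposite strand, and the strandedness of the libraries is not given in the sources used here.

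RefSeq promoter sequences (GRCm38.p6, the assembly of mm10) matched 8 of the 10 members, all but Ms4a1 and Ms4a6d, and the 250 bases before each start were searched on both strands for 3 short motifs. Of 32851 promoters of the same length, 10.6% held GAGGAAG, a motif of the ETS factor PU.1. The motif AGATAA, bound by GATA factors, was in 9.99% of them. The TATA box motif TATAAA was in 12.4%. Ms4a2 held AGATAA at 3 places, at positions -224, -37 and -11 from the start, which are shown in capitals (the first 2 are read on the opposite strand and appear there as TTATCT). Ms4a4b held TATAAA at 1 place, and GAGGAAG was in none of the 8, which says only that these letters are not in these windows. The promoters of Ms4a6b and Ms4a6c, whose transcripts are compared below, shared an unbroken run of 48 bases, shown in capitals, which began 118 bases before the start of Ms4a6b and 49 before that of Ms4a6c. Ms4a4b and Ms4a4c shared 20 bases, and no other pair more than 9.
Ms4a2 promoter, minus strand, chr19:11623720-11623969: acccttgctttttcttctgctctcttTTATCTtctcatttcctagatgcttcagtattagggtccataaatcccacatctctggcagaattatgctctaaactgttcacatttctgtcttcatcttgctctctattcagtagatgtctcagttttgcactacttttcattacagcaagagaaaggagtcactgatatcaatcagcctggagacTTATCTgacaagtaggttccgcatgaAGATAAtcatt
Ms4a6b promoter, plus strand, chr19:11518309-11518558: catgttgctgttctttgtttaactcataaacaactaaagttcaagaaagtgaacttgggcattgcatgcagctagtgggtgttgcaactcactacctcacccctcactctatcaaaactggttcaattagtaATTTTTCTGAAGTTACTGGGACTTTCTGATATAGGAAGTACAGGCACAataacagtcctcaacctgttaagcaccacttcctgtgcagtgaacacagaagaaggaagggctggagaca
Ms4a6c promoter, plus strand, chr19:11469118-11469367: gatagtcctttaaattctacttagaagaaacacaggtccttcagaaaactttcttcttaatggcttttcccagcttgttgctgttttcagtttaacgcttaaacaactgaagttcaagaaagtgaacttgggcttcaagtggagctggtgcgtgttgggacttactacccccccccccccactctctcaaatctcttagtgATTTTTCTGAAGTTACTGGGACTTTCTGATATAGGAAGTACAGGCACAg

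Ms4a7 was the most abundant member per length of transcript in WT tissue, at 18.5 CPM per kb in iWAT, 96.4 in eWAT and 12.9 in BAT (means, n = 3). It made up 30.8%, 38.4% and 28.4% of the summed level per kb of the 10 members. Ms4a6d came next in all 3 depots, with 13.2, 47.4 and 7.39 CPM per kb. Ms4a6c followed in the white depots, at 9.16 CPM per kb in iWAT and 34.4 in eWAT. Ms4a4a and Ms4a4d were side by side in WT eWAT, at 15.6 and 15.5 CPM per kb, a gap far inside the spread of either. The scarcest members of WT eWAT were Ms4a1 at 5.28 CPM per kb, Ms4a4c at 1.88 and Ms4a2 at 1.31. In C6KO BAT the order was different, with Ms4a4d at 3.08, Ms4a6c at 2.83 and Ms4a7 at 2.72 CPM per kb, values closer together than their spread.

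**Figure D2:**
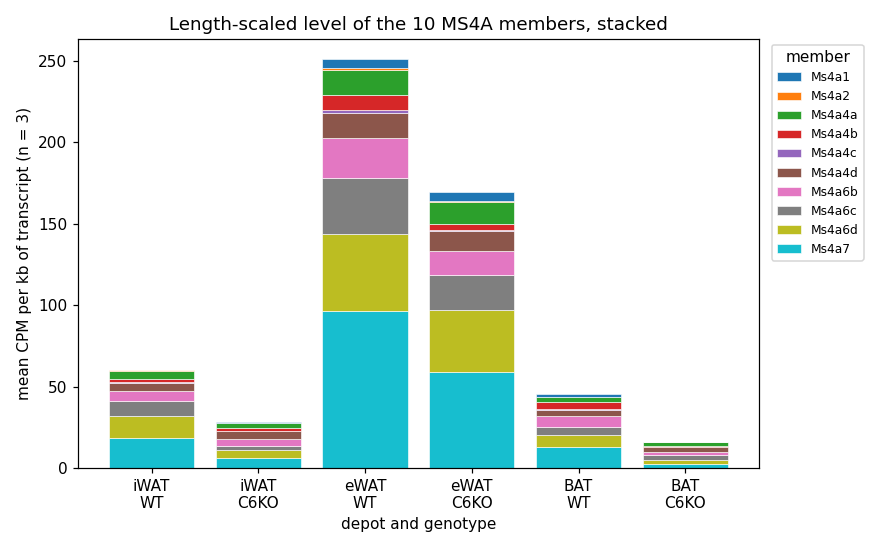
Mean level of the 10 members in CPM per kb of transcript (vertical axis, n = 3 per bar), stacked for each depot and genotype. The stack reaches 251 in WT eWAT and 169 in C6KO eWAT, against 60.1 and 28.1 in iWAT and 45.5 and 16.0 in BAT, and Ms4a7 is the largest layer in the WT bars.

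The first comparison asked how the members differ between depots of WT mice on HFD. Most of the family was higher in eWAT than in iWAT: edgeR's quasi-likelihood test called 8 of 10 members higher (adjusted p below 0.05, at least 1.5-fold), where 12.8% of the 15866 genes tested were called higher. Log2 fold changes of the 8 ran from 1.61 to 4.94. Ms4a7 had 23.4, 21.2 and 29.1 CPM in the iWAT libraries and 140, 129 and 115 CPM in eWAT, and the groups did not come near each other (log2 fold change 2.38, standard error 0.493, adjusted p = 0.00219 in edgeR). Ms4a6d rose by 1.85 (standard error 0.358), Ms4a6c by 1.91 (0.388), Ms4a6b by 1.95 (0.402), Ms4a4a by 1.62 (0.344) and Ms4a4d by 1.61 (0.346) on the log2 scale. Ms4a1 rose by 4.94 with a standard error of 1.69 (adjusted p = 0.0397 in edgeR), and Ms4a2 by 2.43 with one of 0.759 (adjusted p = 0.0216). Both stayed high in estimate when 1 library was left out, at 3.90 to 5.44 for Ms4a1 and 2.18 to 3.03 for Ms4a2, with the lowest of Ms4a1 without eWAT WT replicate 3 (adjusted p = 0.116 in edgeR). Their calls were less stable: Ms4a1 lost its call without any 1 of iWAT WT replicates 1, 2 or 3 or eWAT WT replicates 2 or 3 (adjusted p up to 0.125) and with no filter on low counts (0.0584), and Ms4a2 lost it without iWAT WT replicate 2 or 3 or eWAT WT replicate 1 or 2 (up to 0.0857). Ms4a4b (2.27, standard error 0.986, adjusted p = 0.0926) and Ms4a4c (1.79, 0.690, adjusted p = 0.0570) did not pass in edgeR, although DESeq2 called Ms4a4c, which made 9 of 10 members in that tool (14.2% of its genes were higher).

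Relative to eWAT, 7 of 10 members were lower in WT BAT (edgeR; 23.6% of genes tested were called lower), with Ms4a7 at -2.92 (standard error 0.514), Ms4a6c at -2.74 (0.411), Ms4a6d at -2.69 (0.380), Ms4a4a at -2.36 (0.368), Ms4a2 at -2.34 (0.797), Ms4a4d at -2.02 (0.362) and Ms4a6b at -1.94 (0.409) on the log2 scale. The 3 members that did not pass were Ms4a1, Ms4a4b and Ms4a4c, and BAT WT replicate 2 decided this: without it edgeR called all 10 lower, beside 24.9% of all genes, with Ms4a1 at -4.80 (adjusted p = 0.0416), Ms4a4b at -2.84 (0.0340) and Ms4a4c at -2.11 (0.0415). Ms4a2 lost its call without BAT WT replicate 3 (adjusted p = 0.0780) or eWAT WT replicate 1 (0.0518), and without the libraries richest in B cell markers (0.0535), where edgeR called 8 of 10 members and 23.7% of all genes lower. Between BAT and iWAT of WT mice, edgeR called 0 of 10 members (38.7% of genes tested were called in either direction), with 1 at an unadjusted p below 0.05. That was Ms4a6d, at -0.85 on the log2 scale (standard error 0.370, adjusted p = 0.0708 in edgeR). DESeq2 called 2, Ms4a6d lower and Ms4a1 higher (36.7% of its genes in either direction). The estimate for Ms4a1 was 3.54 (standard error 1.67) in edgeR and 0.14 without BAT WT replicate 2. Ms4a4a was called lower in BAT without iWAT WT replicate 2 (-0.99, adjusted p = 0.0464) or BAT WT replicate 3 (-1.29, 0.0123), with 16.9% of all genes called lower in each of these fits. Each depot stands in a table of its own, so any difference in how or when depots were handled cannot be told apart from depot.

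Of the 12 markers on the macrophage list, edgeR called all 12 lower in BAT than in eWAT and 11 higher in eWAT than in iWAT. It also called 11 lower in BAT than in iWAT, with a median log2 fold change of -1.21 over the list, where it had called 0 of the 10 MS4A members, 5 with estimates below 0 and 5 above (median -0.20). Of the 7 B cell markers, 1 was called higher in eWAT than in iWAT, and of the 8 mast cell markers 6. How far these cell types account for the depot differences of the MS4A members was not tested.

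**Figure D3:**
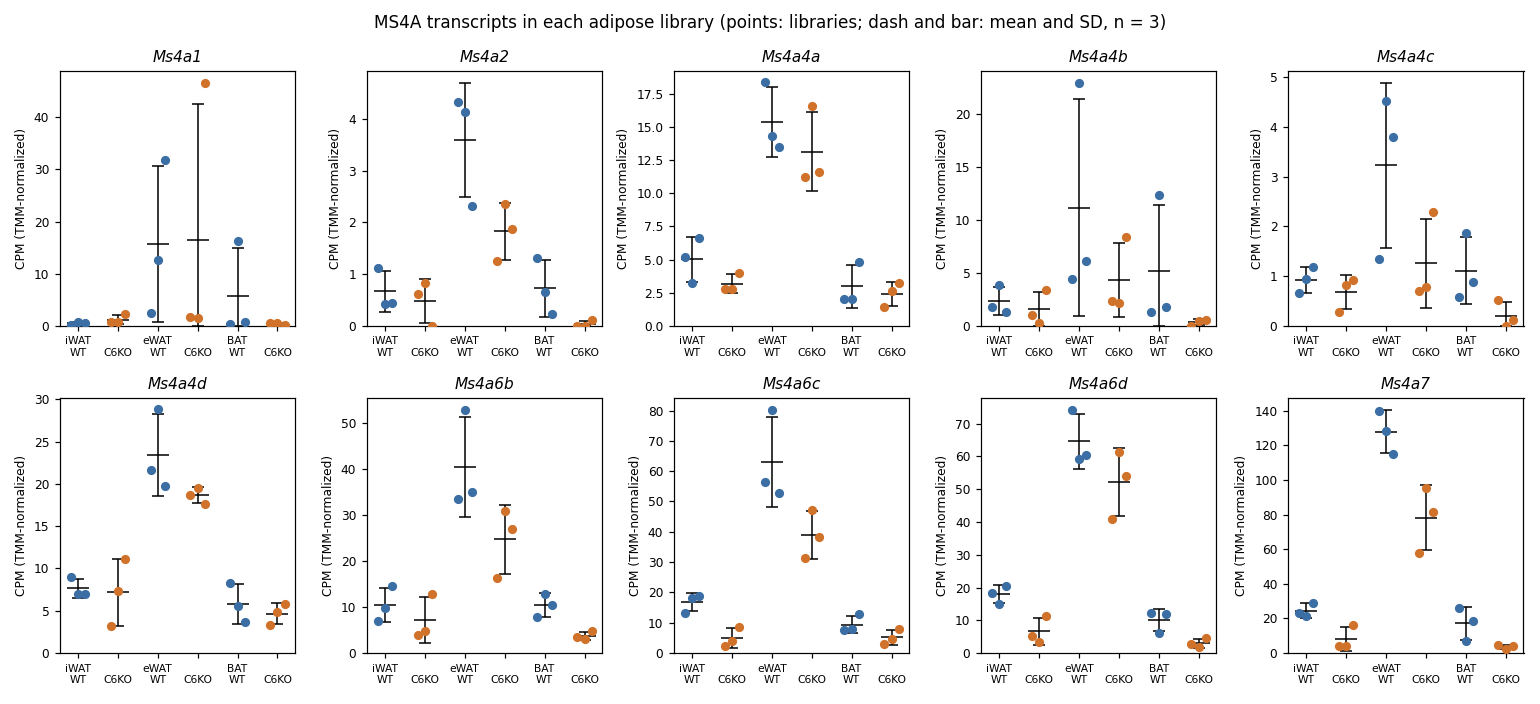
Level of each MS4A member in TMM-normalized CPM (vertical axis, linear from 0, a scale per panel) in the 6 groups of depot and genotype; points are libraries, WT blue and C6KO orange, the dash is the mean and the bar 1 SD (n = 3), cut at 0. Ms4a7 in iWAT lies at 21.2 to 29.1 in WT and 3.84 to 16.0 in C6KO, and Ms4a1 is carried by single libraries with up to 46.6 in eWAT.

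Over the 6 groups, eWAT of WT mice had the highest mean of 9 members, the exception being Ms4a1, for which eWAT of C6KO mice was first at 16.6 ± 26.0 CPM against 15.7 ± 14.9 CPM in WT eWAT (SD, n = 3). For 6 members (Ms4a4a, Ms4a4d, Ms4a6b, Ms4a6c, Ms4a6d and Ms4a7) both eWAT groups lay above every library of iWAT and BAT. For Ms4a1, Ms4a2, Ms4a4b and Ms4a4c, groups next to each other in the order always overlapped.

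The main comparison of the study was C6KO against WT on HFD, taken depot by depot. In iWAT, 3 macrophage members had lower values in every C6KO library than in any WT library. Ms4a7 stood at 23.4, 21.2 and 29.1 CPM in WT and 4.20, 3.84 and 16.0 CPM in C6KO, or 24.6 ± 4.09 against 8.02 ± 6.92 CPM (SD, n = 3). The C6KO libraries did not reach the WT range, but replicate 3 lay far above the other C6KO libraries. Ms4a6d had 18.2, 15.1 and 20.6 CPM in WT and 5.21, 3.46 and 11.3 CPM in C6KO. Ms4a6c had 13.3, 18.2 and 18.9 CPM in WT and 2.24, 3.95 and 8.72 CPM in C6KO. C6KO replicate 3 was again the highest C6KO library of both genes.

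The log2 fold changes in iWAT were -1.76 for Ms4a6c (standard error 0.441, adjusted p = 0.165), -1.43 for Ms4a6d (0.395, adjusted p = 0.176) and -1.62 for Ms4a7 (0.550, adjusted p = 0.235), so edgeR called 0 of 10 members in iWAT, where it called 0.0275% of 14533 genes in either direction and 0.0206% lower. At an unadjusted p below 0.05 there were 3, these same genes, each past the 1.5-fold limit, against 6.72% of all genes lower by that looser rule. DESeq2 called the same 3 lower (3.42% of its genes), with an adjusted p of 0.0126 for Ms4a7, 0.00814 for Ms4a6d and 0.00200 for Ms4a6c. Without overlap between genotypes and lower in C6KO were 3 of 10 members, against 12.3% of genes tested. C6KO replicate 3 decided the call: without it edgeR called 4 members lower, where it called 6.43% of all genes lower, Ms4a7 at -2.62 (adjusted p = 0.000224), Ms4a6d at -2.06 (0.00173), Ms4a6c at -2.45 (0.00177) and Ms4a6b at -1.31 (0.0445). The median over the 10 members was -0.55, beside 0.027 over all genes tested.

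The other members in iWAT overlapped between genotypes. Ms4a6b had 7.06, 9.87 and 14.5 CPM in WT and 3.81, 4.72 and 12.8 CPM in C6KO. Ms4a4a averaged 5.01 ± 1.71 CPM in WT and 3.19 ± 0.717 CPM in C6KO, and Ms4a4d 7.66 ± 1.12 and 7.17 ± 3.97 CPM (SD, n = 3). Ms4a4b and Ms4a4c stayed below 4 CPM in all 6 libraries. For Ms4a1 the WT libraries held 3, 13 and 10 counts and those of C6KO 14, 12 and 38, with the highest in C6KO replicate 3, and its estimate of 1.25 (standard error 0.700) was the only one above 0. For Ms4a2 they held 19, 7 and 8 counts against 11, 15 and 0.

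In eWAT, where the family is most abundant, Ms4a7 had 140, 129 and 115 CPM in WT and 57.9, 95.3 and 81.5 CPM in C6KO, without overlap (log2 fold change -0.71, standard error 0.170, adjusted p = 0.0746 in edgeR). Ms4a6c had 56.3, 80.2 and 52.9 CPM in WT and 31.5, 47.2 and 38.4 CPM in C6KO, again without overlap (-0.69, standard error 0.197, adjusted p = 0.117). Ms4a6b was at 33.4, 52.8 and 34.9 CPM in WT against 16.4, 30.8 and 27.0 CPM in C6KO (-0.70, standard error 0.269, adjusted p = 0.234). Replicate 2 was the highest library of its group for Ms4a6b and Ms4a6c in both genotypes. Ms4a4d also had no overlap, at 19.7 to 28.9 CPM in WT and 17.7 to 19.6 CPM in C6KO, a difference of -0.33 (standard error 0.158). Ms4a6d, by contrast, overlapped, at 59.2 to 74.2 CPM in WT and 41.0 to 61.3 CPM in C6KO.

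edgeR called 0 of 10 members in eWAT (0.746% of 14889 genes in either direction, 0.208% lower), and 5 had an unadjusted p below 0.05 and a fold of at least 1.5: Ms4a2, Ms4a4c, Ms4a6b, Ms4a6c and Ms4a7, against 2.79% of all genes lower by that rule. DESeq2 called 2 lower, Ms4a7 with an adjusted p of 0.00395 and Ms4a6c with 0.0159, where it called 1.23% of its genes lower. Without overlap and lower in C6KO were 4 of 10 members, beside 11.6% of genes tested. Ms4a7 passed in edgeR without C6KO replicate 2 (-0.85, adjusted p = 0.0406, with 0.616% of all genes called lower). The median of the 10 members was -0.70, beside -0.0060 over all genes tested.

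The mast cell member Ms4a2 had 4.33, 4.13 and 2.32 CPM in WT eWAT and 1.25, 2.35 and 1.88 CPM in C6KO eWAT. The highest C6KO library lay just above the lowest WT library, and the log2 fold change was -0.97 (standard error 0.355, adjusted p = 0.194 in edgeR). Other mast cell genes gave calls: in eWAT 3 of 8 fell by edgeR's test, the carboxypeptidase Cpa3 by 1.23 (adjusted p = 0.0436), the chymase Cma1 by 1.16 (0.0490) and the tryptase Tpsab1 by 1.87 (0.0468) on the log2 scale, and 6 of 8 by DESeq2. Fcer1a, the IgE-binding alpha subunit that pairs with Ms4a2, had 9.20, 9.88 and 5.54 CPM in WT and 1.84, 3.73 and 1.72 CPM in C6KO (-1.75, standard error 0.347, adjusted p = 0.0536 in edgeR). In iWAT the list had 0 calls in either tool and 1 gene at an unadjusted p below 0.05. In BAT 6 of the 8 were tested and edgeR called 0, with 2 lower and 1 higher at an unadjusted p below 0.05. The higher gene was Hdc, the histamine-forming enzyme, which DESeq2 called, at 7.59, 5.24 and 9.03 CPM in WT and 21.0, 14.3 and 17.6 CPM in C6KO without overlap (1.29, standard error 0.254, adjusted p = 0.0505 in edgeR). It was named after its values were seen. The mast cell markers summed to 228 to 340 CPM in WT eWAT and 110 to 167 CPM in C6KO eWAT, and their part in the Ms4a2 values was not tested.

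Ms4a1 and Ms4a4b, the B cell and T cell members, followed single libraries in eWAT more than genotype. Ms4a1 was at 2.54, 12.7 and 31.8 CPM in WT and 1.63, 1.42 and 46.6 CPM in C6KO, so that each genotype held both low and high libraries. Its log2 fold change was 0.086 with a standard error of 1.69, and it turned to -2.33 (standard error 0.776, adjusted p = 0.274 in edgeR) once eWAT WT replicate 3 and eWAT C6KO replicate 3, the libraries richest in B cell markers, were left out. Ms4a4b had 4.44, 22.9 and 6.13 CPM in WT and 2.39, 2.16 and 8.33 CPM in C6KO, with the highest in WT replicate 2, which also had the largest summed level of the 8 T cell markers, 99.2 CPM against 12.6 to 54.6 CPM in the other eWAT libraries. With the 2 libraries richest in B cell markers left out, edgeR again called 0 of 10 members in eWAT and 0.0134% of all genes, and the smallest adjusted p of a member was 0.221.

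In BAT, Ms4a7 had 25.8, 7.01 and 18.6 CPM in WT and 4.60, 2.25 and 3.97 CPM in C6KO, a difference of -2.23 on the log2 scale (standard error 0.481, adjusted p = 0.0824 in edgeR). Every C6KO library was below the lowest WT library, which was replicate 2. Ms4a6d had 12.1, 6.17 and 11.9 CPM in WT against 2.69, 1.80 and 4.50 CPM in C6KO (-1.73, standard error 0.402, adjusted p = 0.0854), and Ms4a6b 7.89, 12.9 and 10.5 CPM against 3.45, 2.97 and 4.72 CPM (-1.49, standard error 0.310, adjusted p = 0.0591). Neither overlapped between genotypes. Ms4a6c did overlap, at 7.59 to 12.8 CPM in WT and 3.07 to 7.93 CPM in C6KO (-0.85, standard error 0.379).

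Of the 10 members, 7 passed the filter on low counts in BAT and edgeR called 0 of them (1.24% of 13595 genes in either direction, 1.07% lower), with 4 at an unadjusted p below 0.05: Ms4a4b, Ms4a6b, Ms4a6d and Ms4a7, each past 1.5-fold, where 6.27% of genes were lower by that rule. DESeq2 called the same 4 lower (2.65% of its genes), with an adjusted p of 0.000227 for Ms4a7, 0.00575 for Ms4a6d, 0.00386 for Ms4a6b and 0.00364 for Ms4a4b. The 4 were also the tested members without overlap and lower in C6KO, beside 12.4% of genes tested. Without BAT WT replicate 2 edgeR called 2 lower, beside 1.05% of all genes, Ms4a7 at -2.59 (adjusted p = 0.00504) and Ms4a6d at -1.97 (0.0360). The median of the 7 tested members was -1.49, beside -0.032 over all genes tested.

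Ms4a4b in BAT was at 1.31, 12.3 and 1.76 CPM in WT and 0, 0.449 and 0.536 CPM in C6KO (-3.89, standard error 1.23, adjusted p = 0.247 in edgeR). The size rested on WT replicate 2, and without that library the estimate was -2.09 (standard error 0.823). Ms4a4a and Ms4a4d overlapped, at -0.29 and -0.30. The 3 members not tested had few reads: counts of Ms4a1 were 2, 174 and 7 for WT against 4, 6 and 2 for C6KO, those of Ms4a2 9, 7 and 2 against 0, 0 and 1, and those of Ms4a4c 4, 20 and 8 against 4, 0 and 1. Beyond the 174 counts of Ms4a1 in WT replicate 2, these counts are too few to size a difference at the depth of the BAT libraries.

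**Figure D4:**
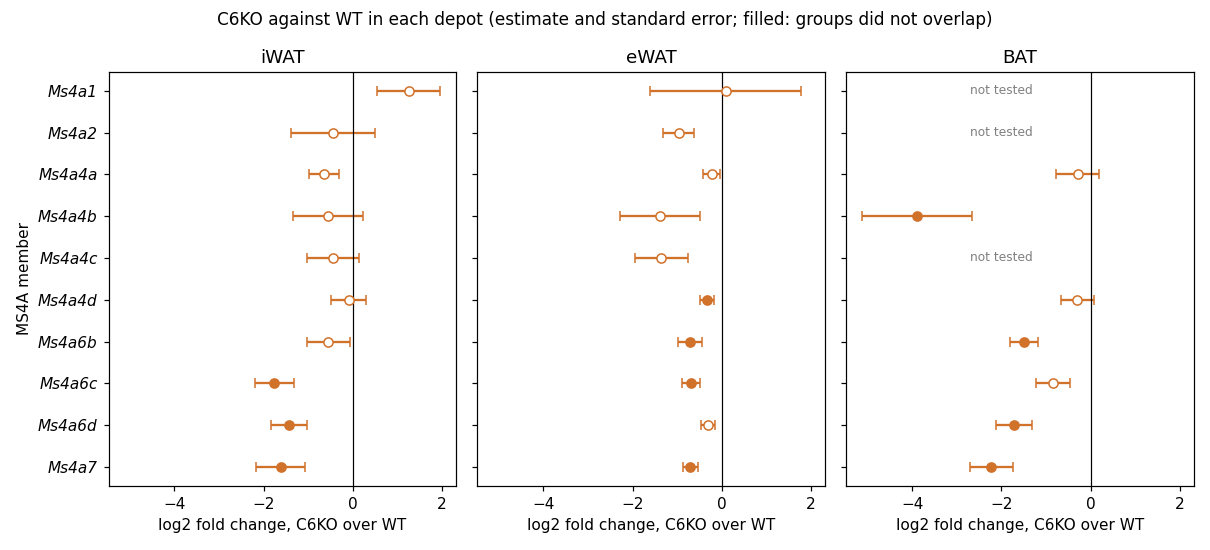
Log2 fold change of C6KO over WT (horizontal axis) for each MS4A member in iWAT, eWAT and BAT, as edgeR's estimate with its standard error; filled points mark members whose 3 C6KO and 3 WT libraries did not overlap. Ms4a7 is filled and left of 0 in all 3 panels (-1.62, -0.71 and -2.23), while Ms4a1 has the widest bar in eWAT.

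A difference between depots in the genotype effect was tested as an interaction over all 18 libraries. edgeR called 0 of 10 members in each of the 3 contrasts, where it called 0% of 15866 genes for eWAT against iWAT, 0.183% for BAT against iWAT and 0.536% for BAT against eWAT, and DESeq2 also called 0 members in each (0.0848%, 1.27% and 2.49% of its genes), with no adjusted p for Ms4a2 and Ms4a4c in the contrasts with BAT. At an unadjusted p below 0.05 there was 1 member in each: Ms4a6d, with a genotype effect less negative in eWAT than in iWAT by 1.13 (standard error 0.500, adjusted p = 0.902 in edgeR) and more negative in BAT than in eWAT by -1.44 (0.546, adjusted p = 0.316), and Ms4a2 in BAT against iWAT (-3.58, standard error 1.61, adjusted p = 0.472). Without iWAT C6KO replicate 3, the eWAT against iWAT contrast of Ms4a6d passed (1.74, adjusted p = 0.0481 in edgeR, where 1.41% of genes were called higher). The estimated effect was more negative in eWAT than in iWAT for 6 of 10 members and more negative in BAT than in eWAT for 9 of 10. Those 9 include Ms4a1, Ms4a2 and Ms4a4c, which did not pass the filter on low counts in BAT alone. The median over all genes was 0.012 for eWAT against iWAT and -0.080 for BAT against eWAT. The share of all genes with estimates below 0 is not given, so these counts cannot be set against it. In the fit of all 18 libraries the genotype effects of the members were not shown to differ between depots. The pass of Ms4a6d rested on leaving out iWAT C6KO replicate 3 and does not show a difference by itself.

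Most macrophage markers were lower in C6KO, beside these members. The summed level of the 12 markers was 2151 to 2490 CPM in WT iWAT and 594 to 1630 CPM in C6KO iWAT. The corresponding ranges were 7079 to 9153 and 4407 to 5951 CPM for eWAT, and 883 to 1224 and 361 to 545 CPM for BAT, and no marker was at 0 in any library. The summed level of 7 adipocyte markers differed the other way in the white depots. It was 23707 to 26797 CPM in WT iWAT against 31434 to 32613 CPM in C6KO iWAT, and 9054 to 10899 against 12513 to 16355 CPM in eWAT. Fabp4 was the largest part of it, with means of 11910 and 15414 CPM in iWAT. Estimates were above 0 for 5 of 7 in iWAT, where edgeR called 0. They were above 0 for 7 of 7 in eWAT, where it called 2 higher. In BAT 4 were above 0, and edgeR called 1 lower, Lep, with means of 425 CPM in WT and 41.7 CPM in C6KO. In iWAT 0 of the 12 markers passed in edgeR and 11 had an unadjusted p below 0.05, with 7 called lower by DESeq2. In eWAT the counts were 0, 10 and 5, and in BAT 4, 10 and 10. B cell markers gave 0 calls in edgeR in each depot, with 0 of 6 tested, 0 of 7 and 1 of 2 at an unadjusted p below 0.05 in iWAT, eWAT and BAT. DESeq2 called 0, 0 and 1 of the 7 listed. T cell markers, of which 8, 8 and 3 were tested in edgeR, also gave 0, with 1, 2 and 0 at an unadjusted p below 0.05. DESeq2 called 0, 1 and 3 of the 8 listed, counting also genes that edgeR did not test. The share of all genes at an unadjusted p below 0.05 without a fold limit is not given. Counts of the marker lists by that rule, here, above and below, thus cannot be set against all genes. Ms4a7 counts per 100 counts of Adgre1, the F4/80 antigen of macrophages, were 20.8, 16.5 and 19.0 in WT iWAT and 24.8, 18.2 and 19.0 in C6KO iWAT. They were 26.4, 18.9 and 19.3 against 15.3, 21.3 and 21.1 in eWAT, and 43.0, 19.6 and 43.8 against 29.5, 20.0 and 31.1 in BAT. The genotypes overlapped in this ratio in all 3 depots, and the part of macrophage content in the MS4A values was not tested beyond it. Adgre1 was taken for this ratio, as were Cd3e and Cpa3 for the ratios of other members, after its values had been seen.

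**Figure D5:**
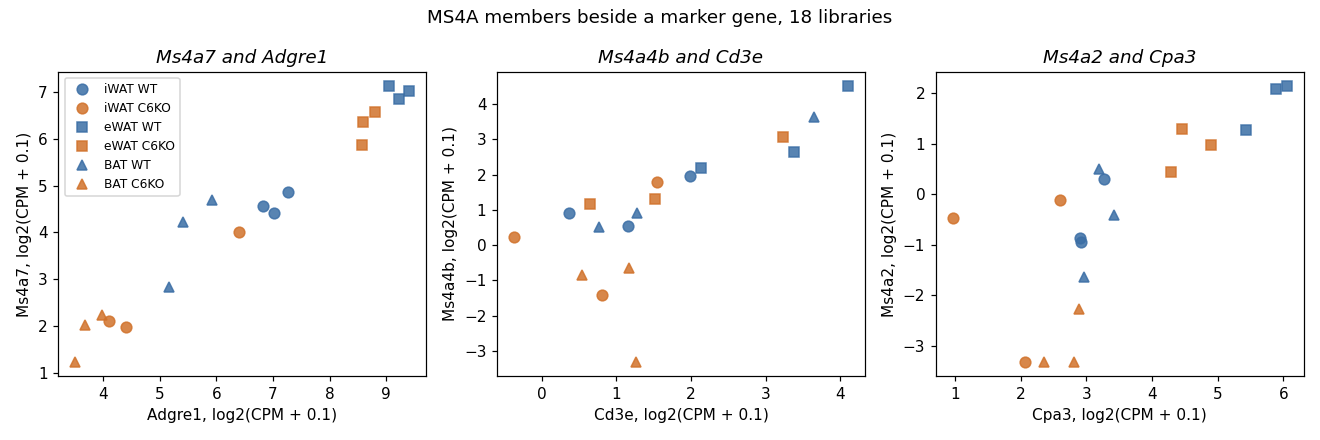
Each point is 1 of the 18 libraries (shape for depot, colour for genotype), with a marker gene on the horizontal and an MS4A member on the vertical axis, both as log2(CPM + 0.1). Ms4a7 and Adgre1 rise together, with eWAT libraries at the top and the C6KO libraries of BAT and replicates 1 and 2 of C6KO iWAT at the bottom, and libraries rich in Cd3e are those rich in Ms4a4b, while Ms4a2 is near its floor in BAT of C6KO mice.

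A list of 8 further macrophage genes held Clec7a, other surface receptors, their adaptor Tyrobp, Cd68 and Spi1. Cd68 is also one of the 12 macrophage markers above, so the lists are not separate. Of the 8, edgeR called 5 lower in BAT: Trem2, a lipid receptor, by 3.58 (standard error 0.468, adjusted p = 0.0132), the lysosomal protein Cd68 by 2.01 (0.250, 0.0096), the signalling adaptor Tyrobp by 1.79 (0.241, 0.0110), Clec7a by 1.68 (0.270, 0.0242) and the transcription factor Spi1 by 1.58 (0.276, 0.0314). It called 0 in iWAT and 0 in eWAT, with 6 and 7 at an unadjusted p below 0.05, and DESeq2 called 4, 2 and 6 of the 8 lower in iWAT, eWAT and BAT. Clec7a in BAT stood at 20.9, 13.1 and 13.0 CPM in WT and 4.60, 3.95 and 5.89 CPM in C6KO. Of 10 partners of the IgE and B cell receptors, edgeR called 1, the adaptor Blnk, lower in BAT (-1.72, standard error 0.313, adjusted p = 0.0366), and 0 in iWAT and eWAT. At an unadjusted p below 0.05 in edgeR, 5 of 9 tested were lower in iWAT, 4 of 10 in eWAT and 5 of 7 in BAT. DESeq2 called 3, 2 and 3 of the 10 lower. The counts at an unadjusted p in both lists again have no share of all genes beside them. Cd79a and Cd79b, the signalling chains of the B cell receptor, overlapped between genotypes in every depot.

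The genes whose profiles over the 18 libraries were nearest to each member, by root mean square difference of centred log2 CPM among 14199 genes, are a description of what was measured together, since the libraries share depots and genotypes. Ms4a7 was nearest to Clec4a2, Msr1 (a scavenger receptor) and Plek, at 0.288 to 0.405, and Ms4a6d to Kcnk13, Lilrb4a and Fcgr3 (an IgG receptor), at 0.296 to 0.328. Ms4a6c was nearest to the endosomal receptor Tlr7 at 0.285, then Sla and Glipr1. Ms4a6b had Cd86, a costimulatory ligand, at 0.378, with Pik3cd and Mcm2, and Ms4a4a had Mcm6, Vav3 and Sdc3 at 0.357 to 0.377. These members vary around their own means by 1.13 to 1.91. The genes named were picked as the nearest of all those compared, so small differences follow from that choice.

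Ms4a1 was nearest to the B cell genes Cd79b, Spib and Pou2af1 (0.790 to 0.809), and Ms4a4b to the T cell genes Cd3g and Cd8a and to Ccr7, a receptor for homing to lymph nodes (0.615 to 0.710). Ms4a4b thus sits with T cell transcripts rather than with those of the macrophages, B cells and mast cells for which the 10 genes were put together. Ms4a4d was nearest to Dcn, an extracellular matrix proteoglycan of fibroblasts, and to Pla1a and Gdf10 (0.272 to 0.299). Ms4a4c had Fgr, Nkg7 and Cd2 at 0.643 to 0.673, and Ms4a2 had Slc6a4, the serotonin transporter, at 0.665, with AI839979 and Pbk more distant at 0.914 and 0.936.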

How the data were processed

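The authors sequenced poly(A) RNA, aligned reads to mm10 with STAR, counted exon reads with HOMER (1 transcript per gene) and deposited raw counts, 1 table per depot. The depot of a column came from its table and the genotype and replicate from the labels. There were 0 value columns without a sample. Strandedness, annotation and tool versions are not given in the sources used here.

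From the counts, edgeR 4.0.16 (R 4.3.3, limma 3.58.1) with filterByExpr, TMM and robust quasi-likelihood compared C6KO and WT within each depot. Depots and interactions were tested in one fit of 18 libraries. A call needed an adjusted p (Benjamini-Hochberg, over all genes tested) below 0.05 and a change of 1.5-fold or more. DESeq2 1.42.0, other scalings and filters, the replicate number as a block and leaving out each library were alternatives. The standard error of an edgeR estimate is its size divided by the square root of its F value. Named genes were the 10 members, Casp6, listed genes and, per member, the 3 with the nearest log2 CPM profile (prior count 1; mean of at least 1 CPM). The fits were run on simulated data with the same spread for every gene and no outlying libraries. That run does not show how they behave for members as variable as Ms4a1. Members and lists were chosen with earlier results of these data known. The coding sequences come from GENCODE, the promoters from RefSeq. Figures were drawn with matplotlib (Python). A listed B cell marker is not reported here and was left out of the sums and counts.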

Additional observations from a re-analysis of the deposited data

How the results depend on the processing

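In C6KO against WT, where edgeR called 0 members in each depot, DESeq2 called 3 in iWAT, 2 in eWAT and 4 in BAT, all lower. A fit of all 18 libraries called 1 in iWAT and 2 in BAT, and no filter on low counts called 1 in eWAT and 1 in BAT. Without 1 library the counts were 0 to 4 for iWAT (4 without C6KO replicate 3), 0 to 1 for eWAT (1 without C6KO replicate 2) and 0 to 2 for BAT (2 without WT replicate 2). Between BAT and iWAT of WT, DESeq2 called 2 members, total counts as the only scaling 1, at least 10 counts in every library 1, only the libraries compared 2, and leaving out 1 library 0 to 1 (1 without iWAT WT replicate 2 or BAT WT replicate 3). Leaving out 1 library gave 6 to 8 in eWAT against iWAT and 6 to 10 in BAT against eWAT (10 without BAT WT replicate 2). The interaction of eWAT and iWAT gave 0 to 1 (1 without iWAT C6KO replicate 3). Shares of all genes called are given above for DESeq2 and for the fits without 1 library that are named here. For the other settings they are not given, so those counts cannot be set against all genes. Why these counts moved was not tested.

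The replicate number as a block called 1 member in iWAT, 2 in eWAT, 1 in BAT, 2 in BAT against iWAT, 9 in eWAT against iWAT and 8 in BAT against eWAT. Shares of all genes called with the block are not given, so these counts cannot be set against all genes either. The replicate numbers did not pair WT and C6KO libraries: correlations of same-numbered libraries ran from -0.458 to 0.146, and not every library correlated best with its own number. Between BAT and iWAT each did, in both genotypes, with correlations of only 0.0189 to 0.0732, a hint from the data and not from the design.

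Estimates that turned sign were all uncalled. Ms4a1 in eWAT was -0.87 with the block, -2.33 without the libraries richest in B cell markers (an alternative chosen after seeing the data) and -3.37 to 1.12 without 1 library. Without 1 library, iWAT gave -1.07 to 0.16 for Ms4a2, -1.79 to 0.0069 for Ms4a4b and -0.56 to 0.26 for Ms4a4d, and BAT -0.54 to 0.29 for Ms4a4a and -0.51 to 0.042 for Ms4a4d. The lower depth of the BAT libraries limits Ms4a1, Ms4a2 and Ms4a4c.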

Other observations

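The tables also held 7 MS4A genes that are not members and the related genes Tmem176a and Tmem176b. Tmem176b, an ion channel subunit of antigen-presenting cells, was the most abundant of these. It had 141 to 159 CPM in WT iWAT and 93.2 to 138 CPM in C6KO iWAT, narrowly without overlap. In iWAT 12.3% of genes tested were lower in C6KO without overlap, and edgeR called 0 of the 3 genes of this list that it tested there. In BAT Tmem176b had 40.7 to 42.1 CPM in WT and 19.0 to 31.6 CPM in C6KO (log2 fold change -0.61, standard error 0.206, adjusted p = 0.232 in edgeR). Tmem176a in BAT had 15.7 to 19.9 and 7.28 to 13.9 CPM (-0.67, standard error 0.254, adjusted p = 0.297 in edgeR). In eWAT both overlapped between genotypes. Ms4a8a was counted in all 18 libraries, at 0.107 to 4.22 CPM, and Ms4a3, Ms4a5, Ms4a10, Ms4a13 and Ms4a18 had 0 CPM in every library. In WT, edgeR called Ms4a8a, Tmem176a and Tmem176b lower in BAT than in iWAT and than in eWAT, and called 0 of the 3 between eWAT and iWAT (Tmem176b had an adjusted p of 0.0301 in edgeR below the 1.5-fold limit, and DESeq2 called it). The transcript counted for Tmem176b in BAT was not that of the white depots, so its comparisons with BAT rest on unlike exons.

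Members differed in their counts per 100 counts of Adgre1. Adgre1 itself averaged 131 CPM in WT iWAT and 40.8 CPM in C6KO iWAT, 602 and 404 CPM in eWAT, and 46.1 and 13.2 CPM in BAT. Any gene that was lowered less than Adgre1 therefore has a higher ratio in C6KO. How many of all genes do so was not counted. For iWAT the ratios of Ms4a6c were 11.8, 14.1 and 12.4 for WT against 13.2, 18.7 and 10.3 for C6KO, which overlap. For Ms4a6b the ratios were 6.27, 7.67 and 9.44 for WT against 22.4, 22.3 and 15.2 for C6KO, and Ms4a4d had 7.96, 5.45 and 4.57 against 18.5, 34.5 and 13.1, so that both were higher in every C6KO library. The same held for Ms4a4a, at 4.64, 2.49 and 4.32 against 16.2, 13.2 and 4.76, and for Ms4a4c, at 0.580, 0.739 and 0.768 against 1.65, 3.90 and 1.09. In eWAT the ratio of Ms4a4d was 3.30 to 4.24 for WT and 4.38 to 4.93 for C6KO, also without overlap. For BAT those of Ms4a4d were 13.8, 15.4 and 8.55 for WT against 21.3, 43.2 and 45.4 for C6KO, again without overlap. Differences in these ratios were not tested.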
